A study of Mus musculus with 6 samples.

Results

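The clustered protocadherins are 58 cell-surface adhesion genes in 3 tandem arrays on mouse chromosome 18, and their transcripts were examined in cultured epidermal keratinocytes with and without Dnmt1. Members were all genes whose symbol begins with Pcdha, Pcdhb, Pcdhga, Pcdhgb or Pcdhgc followed by a number, plus Pcdhac1 and Pcdhac2. This gave 14 alpha, 22 beta and 22 gamma genes of 43629 genes counted. Keratinocytes were isolated from the epidermis of female mice at postnatal day 3, cultured for 5 days, and sequenced as poly(A)-selected RNA, with 3 libraries per group (6 in all). In the Dnmt1Δ/Δep group, floxed alleles of Dnmt1, the maintenance DNA methyltransferase, were deleted by a Cre recombinase under the Keratin 5 promoter, which is active in basal keratinocytes, so that cells outside this lineage were not targeted. The control mice carried floxed Dnmt1 on one or both alleles without the Cre transgene, as the study describes its controls, and all mice were of mixed C57BL/6J and 129SV origin. The culture time is that of the labels, and one legend of the study gives 72 h instead.

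As background, clustered protocadherins are best known from neurons. Each alpha and gamma gene has its own promoter and its own large first exon, which encodes the extracellular cadherin repeats and the membrane span, and this exon is spliced to constant exons that all genes of the cluster use. Beta genes are single exons without constant exons. In neurons a promoter is chosen in each cell with the aid of CTCF and cohesin, promoters that are not chosen are methylated, and the proteins bind the same isoforms on a neighbouring cell. The last genes of the alpha and gamma clusters, named C-types (Pcdhac1, Pcdhac2, Pcdhgc3, Pcdhgc4 and Pcdhgc5), are regulated apart from the others, and Pcdhgc3 is the member found most widely outside the nervous system.

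In cultured keratinocytes, clustered protocadherin RNA was almost all from the gamma cluster, and within it mostly from Pcdhgc3. In Dnmt1Δ/Δep keratinocytes 5 members rose: Pcdhgb2, Pcdhga8, Pcdhga10 and Pcdhgb5 of the gamma cluster, and Pcdhb2 of the beta cluster, the last at very few reads. This was 12.2% of the 41 members tested, where 6.03% of all genes tested rose, and the calls of Pcdhgb5 and Pcdhb2 were lost whichever library was left out. The share counts Pcdhb2, which was tested through the Dnmt1Δ/Δep libraries alone and so had to differ. No member fell. Pcdhgc3, with most of the reads, had a log2 fold change of 0.14 ± 0.12 (SE, n = 3 per group), and the alpha cluster was near the limit of detection in both groups.

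The label check came first. Dnmt1 was at 394, 379 and 324 CPM (gene reads scaled to a common library size) in the control libraries and at 49.7, 54.3 and 50.7 CPM in the Dnmt1Δ/Δep libraries. The groups were far apart, with a log2 fold change of −2.83 ± 0.11 (SE, edgeR quasi-likelihood test, Benjamini-Hochberg adjusted p = 8.1e-05). Libraries held between 53433121 and 115526598 gene counts, so that 3 counts, the level a count of 0 allows, correspond to between 0.0254 and 0.0558 CPM. Intervals and limits of this kind cover counting error only. Control replicate 1 stood apart from the other controls. Its Krt1, a keratin of differentiating keratinocytes, was at 53.2 CPM against 356 and 530, and its Pmel, a melanocyte gene, at 61.1 CPM against 180.03 and 183 CPM. Without it 2 members rose, Pcdhgb2 and Pcdhga8.

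How reads are counted matters in these clusters. In the counting used by the authors, a read is dropped when it touches exons of more than 1 gene, and the constant exons belong to every alpha gene or to every gamma gene. In the GENCODE M21 annotation (GRCm38), each gamma gene shared exon with the 21 others, and a median of 2119 bases per gene were shared. The unshared part was between 33.2% and 68.5% of exon length for gamma genes, with a median of 55.3%. For alpha genes it was between 8.56% and 61.1%, with a median of 46.4%. Beta genes kept between 90.3% and 100%. A count of an alpha or gamma gene is therefore nearly a count of its own first exon, and reads from the 3′ constant exons are missing from it. Reads set aside as ambiguous, for all genes together, were between 1.01% and 1.04% of all reads in control and between 0.902% and 0.967% in Dnmt1Δ/Δep libraries. Their part from the protocadherins is unknown, and whether the loss was alike in both groups was not tested. Levels of genes in different clusters are not on one footing. For comparisons between genes, counts were therefore divided by the length of unshared exon on the gene's own strand and given as CPM per kilobase.

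Detection differed between the clusters in every library. The alpha cluster (chr18:36930184-37187661) had between 5 and 23 reads per library over its 14 genes. Its summed level was 0.137, 0.123 and 0.0931 CPM in control and 0.101, 0.104 and 0.195 CPM in Dnmt1Δ/Δep keratinocytes. The groups overlapped, and no alpha gene reached the count needed for a test. The highest Dnmt1Δ/Δep value came from the deepest library. Pcdha2, Pcdha4 and Pcdhac1 had no count in any of the 6 libraries, which allows up to 0.0558 CPM in the shallowest library. For Pcdha4 this limit covers only the 494 of 5768 exon bases that are unshared. Pcdhac2, the other alpha C-type, had 2, 3 and 0 reads in control and 0, 1 and 5 reads in Dnmt1Δ/Δep libraries.

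Over all 6 libraries, the alpha genes with the highest mean levels per kilobase were a gene listed as Pcdha11 and Pcdha9, an order that rests on a few reads. Pcdha9 had 1, 3 and 0 reads in control and 1, 2 and 4 in Dnmt1Δ/Δep libraries. The symbol Pcdha11 is given to 2 gene identifiers. The one with reads (ENSMUSG00000007440) had 0, 5 and 1 reads in control and 3, 3 and 1 in Dnmt1Δ/Δep libraries, and it starts within 117 bases of the gene that RefSeq names Pcdha10. The other (ENSMUSG00000102206) had no count. At these read numbers no difference between groups was detectable for any alpha gene. In 3 alpha genes (Pcdha4, Pcdha6 and Pcdha7), a predicted gene that runs on to the gamma constant exons overlaps the first exon on the same strand (Gm42416, Gm37013 and Gm37388), and every exon base of these 3 predicted genes is shared with other genes. They had 0 counts.

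The beta cluster (chr18:37264938-37524479) was present throughout but low. In each library at least 21 of its 22 genes had a read. The summed level was 9.18, 11.5 and 13.4 CPM in control and 13.4, 11.8 and 16.5 CPM in Dnmt1Δ/Δep keratinocytes. The means were 11.4 ± 2.14 and 13.9 ± 2.38 CPM (SD, n = 3), 1.22-fold apart, and the groups overlapped. The filter on low counts left 19 beta genes, without Pcdhb1, Pcdhb6 and Pcdhb10.

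Per kilobase, the most abundant beta genes were Pcdhb17 and Pcdhb16, both homophilic adhesion proteins encoded by single exons near the 3′ end of the cluster. Pcdhb17 was at 1.86, 2.88 and 2.92 CPM in control and 3.22, 3.95 and 4.66 CPM in Dnmt1Δ/Δep libraries. All Dnmt1Δ/Δep values lay above all control values, but the difference did not pass the test over all genes (log2 fold change 0.63 ± 0.25, SE, edgeR adjusted p = 0.18). Pcdhb16 was at 1.68, 1.71 and 2.07 CPM in control and 1.63, 1.19 and 1.99 CPM in Dnmt1Δ/Δep libraries. The groups overlapped, with a log2 fold change of −0.18 and a 95% confidence interval from −0.78 to 0.43. Per kilobase of exon, control levels were 0.548 ± 0.129 CPM for Pcdhb17 and 0.348 ± 0.0409 CPM for Pcdhb16 (SD, n = 3). Pcdhb20, named after its values were seen, was at 0.327 ± 0.0572 CPM in control, so the second place of Pcdhb16 is within the spread.

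A single beta gene was called. Pcdhb2 (chr18:37294812-37297624), the second gene from the 5′ end of the cluster, had 1, 3 and 1 reads in control and 13, 10 and 17 reads in Dnmt1Δ/Δep libraries. The groups were well apart, at 0.0106, 0.0308 and 0.0186 CPM against 0.218, 0.116 and 0.144 CPM. The log2 fold change was 2.86 ± 0.60 (SE, edgeR adjusted p = 0.027). Over the pooled reads (40 against 5, scaled for depth) the ratio was 7.45, with a 95% counting interval from 2.94 to 24.2. Pcdhb2 passed the filter on low counts through the Dnmt1Δ/Δep libraries alone (3 over the cutoff of 0.109 CPM, against 0 control libraries), so that among the genes tested it had to differ. The fit without the filter also called it (edgeR adjusted p = 0.038). In Dnmt1Δ/Δep libraries Pcdhb2 was at 0.0566 ± 0.0188 CPM per kilobase, below Pcdhb16 and Pcdhb17 in the same libraries. The call was lost whichever of the 6 libraries was left out, with adjusted p between 0.057 and 0.102 (edgeR quasi-likelihood test).

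**Figure D1:**
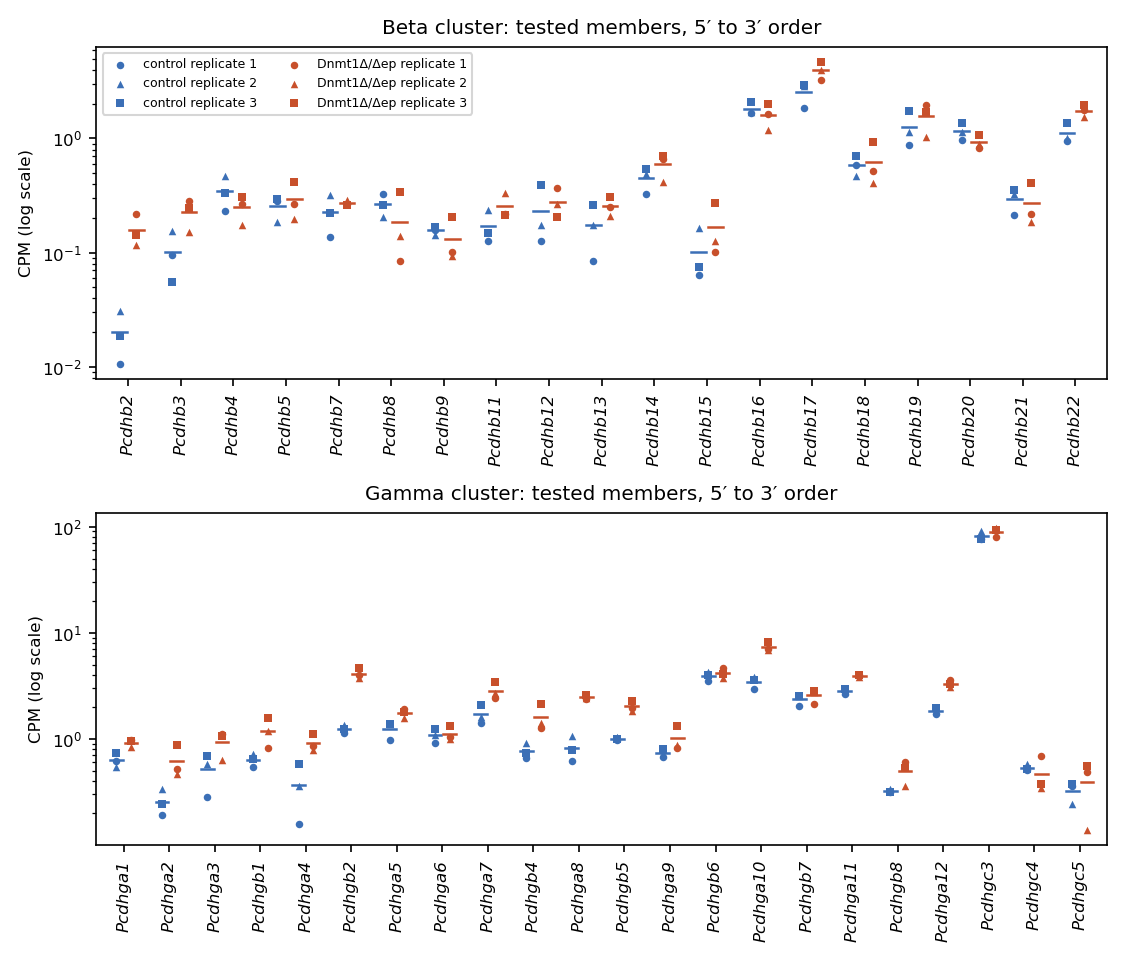
Level of each tested clustered protocadherin in each library. The vertical axis is CPM on a log scale, genes run from 5′ to 3′ along each cluster, blue marks are control and red marks Dnmt1Δ/Δep libraries, symbols give the replicate, and bars are group means. Pcdhgc3 stands far above every other member in both groups. All red marks lie above all blue ones for 15 of 22 gamma and 3 of 19 beta genes, the 5 called ones among them. Over all genes tested this held for 18.2%, and the beta share is near that.

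The gamma cluster (chr18:37661793-37841873) had the largest sums. All 22 genes had more than 3 reads in every library, and all 22 were tested. The summed level was 100.3, 119 and 104 CPM in control and 122, 137 and 141 CPM in Dnmt1Δ/Δep keratinocytes. The groups did not overlap, with means of 107.8 ± 9.78 and 133.8 ± 10.1 CPM (SD, n = 3), 1.24-fold apart. Without Pcdhgc3 the sum of the other 21 genes was 23.3, 28.3 and 28.4 CPM in control and 43.2, 40.6 and 48.9 CPM in Dnmt1Δ/Δep libraries. These means, 26.6 ± 2.91 and 44.2 ± 4.23 CPM, were 1.66-fold apart, and the ratio was 1.85, 1.44 and 1.72 for replicates 1, 2 and 3. The sums are given as a description, with no test.

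The largest log2 fold change of the gamma cluster was that of Pcdhgb2 (first exon at the start of chr18:37689828-37841873), a B-type isoform. Its order with Pcdhga8 is not settled, as their 95% intervals overlap (1.26 to 2.19 and 0.96 to 2.20). Without control replicate 2 the log2 fold changes were 1.80 for Pcdhgb2 and 1.82 for Pcdhga8. Pcdhgb2 was at 1.14, 1.36 and 1.23 CPM in control and 3.96, 3.76 and 4.63 CPM in Dnmt1Δ/Δep libraries. Every Dnmt1Δ/Δep library was more than 2-fold above every control library. The log2 fold change was 1.72 ± 0.20 (SE, edgeR adjusted p = 0.0027), and it was called in all 12 fits tried. Per kilobase its level went from 0.451 ± 0.0407 to 1.49 ± 0.165 CPM (SD, n = 3).

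Pcdhga8, an A-type isoform, was at 0.613, 1.07 and 0.782 CPM in control and 2.37, 2.41 and 2.61 CPM in Dnmt1Δ/Δep libraries. The Dnmt1Δ/Δep values were close to each other and the groups were apart, with a log2 fold change of 1.58 ± 0.27 (SE, edgeR adjusted p = 0.012). Without Dnmt1Δ/Δep replicate 2 the adjusted p was 0.052 at a log2 fold change of 1.54.

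Pcdhga10 was second to Pcdhgc3 in level per kilobase over the 6 libraries, but not in control alone, where Pcdhgb6 was higher in value. Pcdhga10 was at 2.95, 3.85 and 3.57 CPM in control and 7.01, 6.87 and 8.18 CPM in Dnmt1Δ/Δep libraries, with no overlap. The log2 fold change was 1.09 ± 0.18 (SE, edgeR adjusted p = 0.011), and 0.98, just under the fold threshold, without control replicate 1. Its first exon lies on the opposite strand of Gm26672, a transcript with between 12 and 83 reads per library and a log2 fold change of 0.96 (edgeR adjusted p = 0.35).

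Pcdhgb5 was at 0.973, 1.05 and 1.01 CPM in control and 1.96, 1.84 and 2.27 CPM in Dnmt1Δ/Δep libraries. The SD of the control libraries was 0.0371 CPM, and the groups did not overlap. Its log2 fold change of 1.01 ± 0.21 (SE, edgeR adjusted p = 0.029) sat at the threshold of 1, and the call held in 2 of the 12 fits. Under the others the log2 fold change was between 0.91 and 1.03 and either it or the adjusted p (at most 0.11) missed the threshold. Leaving out any one library ended the call.

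The C-types of the gamma cluster showed no change that passed the test. Pcdhgc3 (chr18:37806364-37841873) had between 4079 and 10918 reads per library. It was at 77.0, 90.6 and 75.9 CPM in control and 79.2, 96.8 and 92.5 CPM in Dnmt1Δ/Δep libraries, and the groups overlapped. The 95% confidence interval of its log2 fold change ran from −0.14 to 0.42 (edgeR adjusted p = 0.56). This gene had the most reads of all members, and its upper bound lies below the lower bounds of Pcdhgb2 (1.26), Pcdhga8 (0.96) and Pcdhga10 (0.68). Differences between genes were not tested. BC037039, antisense to the first exon of Pcdhgc3, had a log2 fold change of −0.14 (edgeR adjusted p = 0.85).

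Pcdhgc4, a C-type needed for the survival of some neurons, was at 0.508, 0.575 and 0.521 CPM in control and 0.688, 0.347 and 0.373 CPM in Dnmt1Δ/Δep libraries. One Dnmt1Δ/Δep library lay above and the other two below the controls, and the log2 fold change was −0.20 with a 95% interval from −1.05 to 0.64. Pcdhgc5 was at 0.359, 0.246 and 0.372 CPM in control and 0.487, 0.139 and 0.559 CPM in Dnmt1Δ/Δep libraries. Its Dnmt1Δ/Δep values spanned the control values on both sides, and its interval ran from −0.96 to 1.53. For both genes the intervals are too wide to tell no change from a change of the size seen in Pcdhga10 (Pcdhgc5) or from a fall to below 0.5-fold (Pcdhgc4).

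In level per kilobase, Pcdhgc3 led in both groups, at 24.0 ± 2.42 CPM (SD, n = 3) without and 26.5 ± 2.72 CPM with the deletion. The next in control were Pcdhgb6 at 1.54 ± 0.148, Pcdhga10 at 1.32 ± 0.176, Pcdhga11 at 1.07 ± 0.0560 and Pcdhgb7 at 0.912 ± 0.102 CPM per kilobase. Pcdhgb6 and Pcdhga10 differed by less than the sum of their SDs, and so did Pcdhga11 and Pcdhgb7. The first exons of these 4 genes follow each other in the cluster. In Dnmt1Δ/Δep libraries Pcdhga10 stood alone in second place, at 2.81 ± 0.275 CPM per kilobase. Pcdhgb6, at 1.62 ± 0.173, Pcdhga11 and Pcdhgb2 followed and did not differ beyond their spread. Pcdhgb6, Pcdhga11 and Pcdhgb7 were picked out after their values were seen.

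The change in the mix of gamma isoforms can be read as the share of Pcdhgc3. Of the reads counted for gamma genes, Pcdhgc3 took 76.8%, 76.2% and 72.8% in control and 64.7%, 70.4% and 65.4% in Dnmt1Δ/Δep libraries. The closest libraries of the groups were control replicate 3 and Dnmt1Δ/Δep replicate 2. Their exact binomial 95% intervals ran from 71.6% to 74.0% and from 69.6% to 71.3%. The mean share was 75.3% ± 2.16 in control and 66.9% ± 3.12 in Dnmt1Δ/Δep keratinocytes (SD, n = 3). The share is of reads in unshared exons and depends on how much of each gene is unshared.

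**Figure D2:**
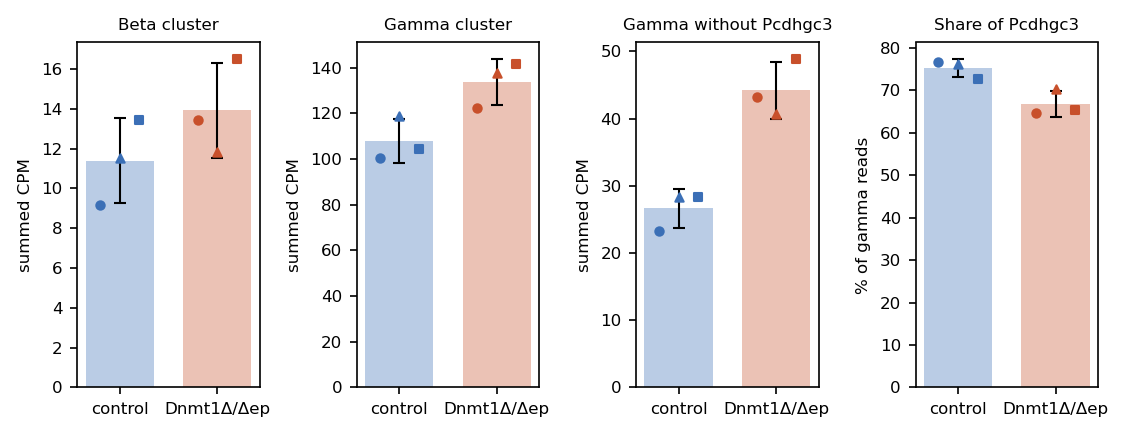
Summed level of the beta cluster, the gamma cluster and the gamma cluster without Pcdhgc3, in CPM, and the share of gamma reads from Pcdhgc3, in percent. Bars are group means from 0, whiskers SD, and points the 3 libraries of each group (circle, triangle and square for replicates 1, 2 and 3). The beta points overlap, the gamma points do not, and the gap is widest for gamma without Pcdhgc3, while the share of Pcdhgc3 is lower in all 3 Dnmt1Δ/Δep libraries.

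Over the whole family, 41 members were tested and 5 rose (4 gamma, 1 beta), where 6.03% of the 16829 genes tested rose and 6.42% were called in either direction. The beta count, 1 of 19 (5.26%), was near that background, and the gamma count, 4 of 22 (18.2%), was above it in this fit. The gamma genes had a median mean count of 117, against 1295 for all genes tested, and shares at like abundance were not tested. Without control replicate 1 or Dnmt1Δ/Δep replicate 2 the gamma count was 2, where 1183 of 17219 and 682 of 17496 genes rose. No member fell, by edgeR with or without the block, by DESeq2, or at an unadjusted p of 0.05, where the background was 0.392% of genes for adjusted calls and 7.79% for unadjusted ones. At an unadjusted p of 0.05, 14 members were higher, against 15.8% of all genes. These were 3 beta genes, which is the background share, and 11 of 22 gamma genes. With the adjusted p alone and no fold threshold 6 members were higher, against 7.71% of all genes. The added member was Pcdhga12, named after its values were seen, at 1.72, 1.87 and 1.94 CPM in control and 3.59, 3.05 and 3.29 CPM in Dnmt1Δ/Δep libraries, with a log2 fold change of 0.85 ± 0.18 (SE, edgeR adjusted p = 0.032).

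Directions are given by cluster. Of the gamma genes 21 had a positive log2 fold change and 1 a negative one, with a median of 0.68. Of the tested beta genes 13 were positive and 6 negative, with a median of 0.30. Of all genes tested 49.9% were positive, and their median was −0.00. In 15 gamma genes and 3 beta genes all Dnmt1Δ/Δep libraries lay above all control libraries, against 18.2% of all genes tested. The beta count is near that share and the gamma count is above it. In 0 members all Dnmt1Δ/Δep libraries lay below, against 11.7%. Members that passed the filter only through the group where they are high had to differ, as Pcdhb2 did. Genes of one cluster were read in the same libraries and share enhancers, and are not independent of each other.

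The gamma genes are of A-, B- and C-type. All 12 Pcdhga genes had positive log2 fold changes, from 0.06 to 1.58 with a median of 0.79, and 2 rose. All 7 Pcdhgb genes did so too, from 0.08 to 1.72 with a median of 0.91, and 2 rose. The 3 Pcdhgc genes ran from −0.20 to 0.28 with a median of 0.14, and 0 rose (0 also at an unadjusted p of 0.05 and by DESeq2). With 6.03% of all genes rising, 0 of 3 is no departure from the background. The values overlap between the types, and the difference between them was not tested. Among the A- and B-types the size was uneven along the cluster. Pcdhga6, Pcdhgb6 and Pcdhgb7 had log2 fold changes of 0.06, 0.08 and 0.12, whereas their neighbours Pcdhga7 and Pcdhga10 had 0.74 and 1.09. Pcdhga4, Pcdhga2 and Pcdhgb4 had log2 fold changes of 1.36, 1.27 and 1.05 with groups that did not overlap, but their adjusted p of 0.12, 0.0996 and 0.072 (edgeR) missed the threshold. DESeq2 called Pcdhga4 and Pcdhgb4. The genes named in the last sentences were chosen after their values were seen.

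**Figure D3:**
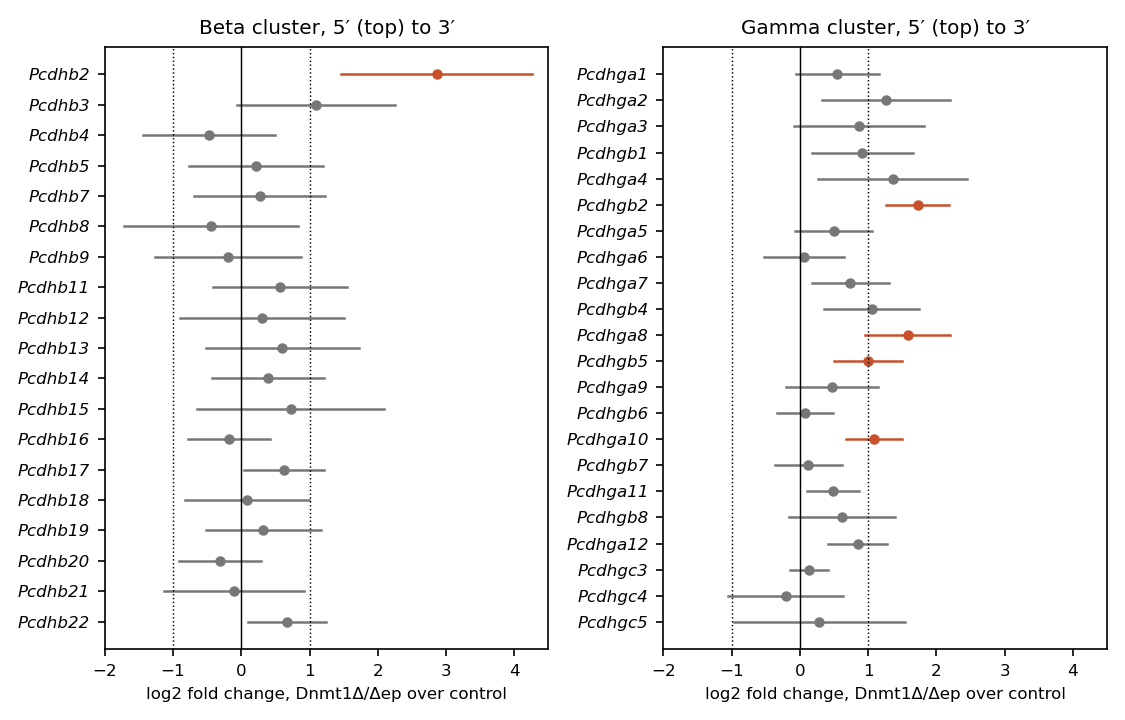
Log2 fold change (Dnmt1Δ/Δep over control) of the 19 beta and 22 gamma genes tested, ordered from 5′ (top) to 3′ along each cluster. Points are edgeR estimates, lines 95% confidence intervals, dotted lines the fold threshold at 1 and −1, and red marks genes that passed the test. Beta estimates scatter on both sides of 0 apart from Pcdhb2, while 21 of the 22 gamma estimates lie above 0, and the 3 C-types stand at the bottom with estimates from −0.20 to 0.28.

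The genes between and beside the clusters came next. Taf7, a general transcription factor subunit between the beta and gamma clusters, was at 11.3, 11.9 and 14.2 CPM in control and 11.1, 10.3 and 12.1 CPM in Dnmt1Δ/Δep libraries. The groups overlapped, with a log2 fold change of −0.16 and a 95% interval from −0.50 to 0.18. Slc25a2, a mitochondrial ornithine carrier gene beside Taf7, had between 2 and 6 reads per library and was not tested. Of 26 neighbouring genes on chromosome 18 found in the table, 23 were tested and 1 rose (2 by DESeq2), Pcdh1, which is itself a protocadherin outside the clusters. This is near the 6.03% of all genes that rose. None fell (0 also at an unadjusted p of 0.05 and by DESeq2), against 0.392% of all genes (7.79% at the unadjusted p), and the median log2 fold change was −0.00. The neighbours with most reads, Diaph1, Hars, Ik and Ankhd1, were not called.

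The non-clustered protocadherins, which have promoters of their own on several chromosomes, were read in the same way. Of 13 genes 10 were tested, 3 rose and 0 fell (1 by DESeq2, and 2 at an unadjusted p of 0.05), with a median log2 fold change of 0.72. At an unadjusted p of 0.05, 5 were higher, against 15.8% of all genes. Of all genes tested 6.03% rose and 0.392% fell, and 7.79% were lower at an unadjusted p of 0.05. With the replicate block 4 rose, the added gene being Pcdh15 (log2 fold change 1.95, edgeR adjusted p = 0.041). Pcdh15 was tested through the Dnmt1Δ/Δep libraries alone, with 0 control libraries over the cutoff of the filter, and was not called without the filter (edgeR adjusted p = 0.078). Without control replicate 1 there were 2 that fell, Pcdh19 and Cdhr1. Pcdh7, an adhesion protein that can bind protein phosphatases, was at 37.6, 24.2 and 26.5 CPM in control and 96.2, 81.7 and 80.6 CPM in Dnmt1Δ/Δep libraries. Every Dnmt1Δ/Δep library was more than 2-fold above every control library (log2 fold change 1.55 ± 0.18, SE, edgeR adjusted p = 0.0029). Pcdh1, the protocadherin best known from airway epithelium, was at 63.4, 98.8 and 104 CPM in control and 250, 235 and 152 CPM in Dnmt1Δ/Δep libraries. The groups did not overlap (log2 fold change 1.26 ± 0.25, SE, edgeR adjusted p = 0.022). The adjusted p was between 0.069 and 0.082 without control replicate 2, Dnmt1Δ/Δep replicate 1 or Dnmt1Δ/Δep replicate 2.

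Pcdh10, a gene often methylated in tumours, was low at 0.0846, 0.0616 and 0.130 CPM in control and 1.01, 0.278 and 0.763 CPM in Dnmt1Δ/Δep libraries. The lowest Dnmt1Δ/Δep library was still above the highest control (log2 fold change 2.91 ± 0.59, SE, edgeR adjusted p = 0.024). With 1 control library and 3 Dnmt1Δ/Δep libraries over the cutoff of the filter on low counts, it was tested through the group where it is high, and the fit without the filter also called it (edgeR adjusted p = 0.0040). The call was lost without control replicate 2, Dnmt1Δ/Δep replicate 1 or Dnmt1Δ/Δep replicate 3, with adjusted p of at most 0.11. Pcdh19, a homophilic adhesion gene linked to epilepsy, went the other way in value, at 8.87, 15.8 and 11.0 CPM in control and 5.39, 5.30 and 7.74 CPM in Dnmt1Δ/Δep libraries. These groups did not overlap, but the log2 fold change of −0.95 ± 0.26 missed the threshold (SE, edgeR adjusted p = 0.063). Without control replicate 1 it was called, at −1.13 (edgeR adjusted p = 0.026).

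Most non-clustered genes were far below Pcdhgc3 in level. Per kilobase, Pcdh1 was at 10.1 CPM in control and 24.1 in Dnmt1Δ/Δep keratinocytes, Pcdh7 at 2.78 and 8.12, Pcdh10 at 0.0058 and 0.043, and Pcdhgc3, as given above, at 24.0 and 26.5. Reads in Pcdhgc3 come from its first exon only, while those of Pcdh1 and Pcdh7 come from the whole gene, 3′ end included.

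**Figure D4:**
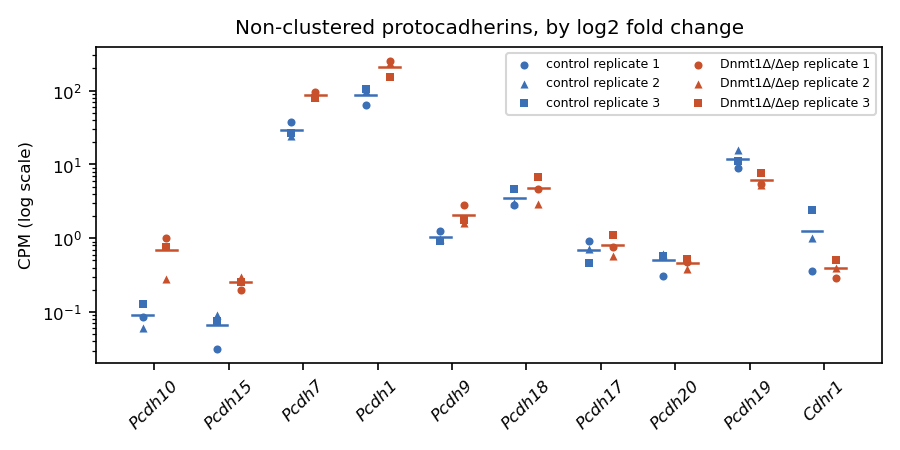
Levels of the 10 tested non-clustered protocadherins per library, in CPM on a log scale, ordered by log2 fold change (largest rise at left). Blue marks are control and red marks Dnmt1Δ/Δep libraries, symbols give the replicate, and bars are group means. Pcdh10, Pcdh7 and Pcdh1 passed the test, and the Pcdh19 libraries are the ones where red lies wholly below blue.

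Among genes that organise or silence the clusters, Dnmt1 itself was the one called. Of 29 such genes, all tested, 0 rose (0 also by DESeq2, and 1 at an unadjusted p of 0.05) and 1 fell, Dnmt1. At an unadjusted p of 0.05, 6 were lower, against 7.79% of all genes. By the adjusted p alone 2 were lower, the other being Tet3, a dioxygenase that oxidises methylcytosine, at −0.39 (edgeR adjusted p = 0.039). Of the 29, 26 had negative log2 fold changes, with a median of −0.13. CTCF, the DNA-binding protein that loops promoters to enhancers, was at 142, 145 and 143 CPM in control and 114, 120 and 127 CPM in Dnmt1Δ/Δep libraries. All Dnmt1Δ/Δep values were lower, by −0.25 ± 0.09 on the log2 scale (SE), without passing the test (edgeR adjusted p = 0.12). Rad21, a cohesin subunit, had a log2 fold change of −0.30 (edgeR adjusted p = 0.15), Trim28 one of −0.13 (0.62) and Wapl one of −0.13 (0.70). Smchd1, known to repress clustered protocadherins and the inactive X chromosome, was at 135 ± 14.5 CPM (SD, n = 3) in the control group, against 127 ± 23.2 CPM. Dnmt3a and Dnmt3b, the de novo DNA methyltransferases, had log2 fold changes of −0.04 and −0.04. Ctcf, Smchd1, Tet3, Dnmt3a and Dnmt3b were chosen after their values were seen.

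Of 18 genes for proteins that bind or act downstream of clustered protocadherins, 1 rose, against 6.03% of all genes, and 0 fell (0 also by DESeq2, and 1 at an unadjusted p of 0.05), with a median log2 fold change of 0.13. At an unadjusted p of 0.05, 6 were higher, against 15.8% of all genes. By the adjusted p alone 4 were higher, Ptk2b, Wasf1, Psen2 and Cyfip2, against 7.71% of all genes. Cyfip2, a subunit of the WAVE complex that drives actin assembly, was at 3.98, 6.45 and 7.15 CPM in control and 10.4, 13.7 and 11.0 CPM in Dnmt1Δ/Δep libraries. The groups did not overlap, and the log2 fold change of 1.004 ± 0.24 sat at the threshold (SE, edgeR adjusted p = 0.0445) and was called in 4 of the 12 fits, lost without any one of the libraries but control replicate 3. In place of Cyfip2, Wasf3 was called by DESeq2 (log2 fold change 2.27, adjusted p = 0.027) and by edgeR without the filter (2.24, adjusted p = 0.042). In the reported fit Wasf3 was tested through the Dnmt1Δ/Δep libraries alone and was not called. The most abundant, Nckap1, Wasf2, Adam10 and Cyfip1, were not called, with log2 fold changes of 0.06, −0.20, −0.03 and −0.02. Adam10 encodes a protease that cleaves gamma protocadherins at the cell surface.

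Markers of other cells are given here because a mixed culture could carry protocadherin RNA of other cells. Some of their sums lay apart between the groups and others overlapped. Fewer cells of a type and less RNA per cell cannot be told apart in bulk RNA. Of the 27640 genes fitted by DESeq2, 1396 were called higher and 122 lower. The 10 keratinocyte markers summed to between 31024 and 34560 CPM in control and between 23087 and 23607 CPM in Dnmt1Δ/Δep libraries, with 0 called by edgeR, 2 lower by DESeq2 and 6 lower at an unadjusted p of 0.05, against 7.79% of all genes. Krt5 and Krt14, which define basal keratinocytes, were the highest of them in both groups. The 8 melanocyte markers summed to between 228 and 582 CPM in control and between 699 and 927 CPM in Dnmt1Δ/Δep libraries, with 0 called by edgeR, 2 higher by DESeq2 and 5 higher at an unadjusted p of 0.05, against 15.8% of all genes. The 12 neuron and glia markers, 8 of them tested, summed to between 47.4 and 68.4 CPM in control and between 63.0 and 73.9 CPM in Dnmt1Δ/Δep libraries, mostly Tubb3, with 0 called by edgeR, 1 higher by DESeq2 and 3 higher at that unadjusted p. The neuronal Rbfox3 and Snap25 were under the limit of 3 counts on average in both groups.

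Fibroblast markers summed to between 29.8 and 64.3 CPM in control and between 37.9 and 154 CPM in Dnmt1Δ/Δep libraries, and 1 of 10 rose (Fbn1). Merkel cell markers summed to between 9.29 and 30.9 CPM and between 68.3 and 143 CPM, and 2 of 7 rose (Krt8 and Krt18, keratins of simple epithelia). Leukocyte markers summed to between 0.275 and 1.01 CPM and between 2.52 and 4.43 CPM, and 2 of the 3 tested rose (Itgam and Csf1r), with 6 of the 9 too low to test, while Ptprc, which defines leukocytes, was at a mean of 0.0124 CPM and 0.0710 CPM. Endothelial markers summed to between 6.83 and 17.9 CPM and between 16.6 and 23.8 CPM, and 2 of the 5 tested rose (Pecam1 and Cdh5). These shares stand beside the 6.03% of all genes that rose. The keratinocyte, melanocyte, Merkel cell and leukocyte sums of the groups did not overlap, as was the case for the gamma sum. The fibroblast, endothelial, and neuron and glia sums overlapped. The part of these cells in the rise of gamma genes was not tested.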

How the data were processed

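Poly(A)-selected RNA of cultured keratinocytes was sequenced, 1 library per mouse. The authors trimmed adapters, removed ribosomal reads, aligned with STAR and assigned unique alignments to genes in htseq-count's union mode. The deposited table holds raw counts, and all its values were whole. The submitters' processing notes give GRCm38, whereas the study's text names a human build for the alignment. The strand setting is not given in the sources used here. Of protein-coding genes wholly covered by exons of the opposite strand 24 of 32 had counts, and of those covered on the same strand 1 of 55, so exon lengths were taken per strand. Entries that name no gene (8.73% to 12.9% of reads per library) were left out, as were the authors' tables of comparisons (means, fold changes and p-values) and the repeat counts.

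Counts were tested with edgeR 4.0.16 (R 4.3.3; quasi-likelihood test, TMM, filterByExpr with minimum counts of 10 and 15, no block), with Benjamini-Hochberg adjustment over all 16829 genes tested. A call needed a fold change of 2 either way and adjusted p ≤ 0.05. SE was the size of the log2 fold change divided by the root of F. CPM use TMM-scaled library sizes. The 12 fits are this one, RLE and upper-quartile factors, no filter, DESeq2 1.42.0, a replicate block and 6 that leave out 1 library. Annotation was GENCODE M21, and figures used matplotlib 3.10.9.

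Libraries of one replicate number share a flow-cell lane in the column headers, and their deviations from the group means correlated (0.46, 0.364 and 0.303 for replicates 1, 2 and 3, over genes), so the numbers pair the libraries. The study's methods use no block. With it Pcdhgb5 lost a call, and Pcdh15 gained one that the fit without the filter does not give.

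The members and gene lists were chosen with earlier results of these data known. Named genes are called members, the 2 most abundant per cluster per kilobase, C-types, Dnmt1, Taf7, Slc25a2, and called or up to 4 abundant genes of each list. No sequence is shown.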

Additional observations from a re-analysis of the deposited data

How the results depend on the processing

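Pcdhgb2, Pcdh7 and Dnmt1 were called in all 12 fits, and none of the log2 fold changes of the called members, Pcdh1, Pcdh7, Pcdh10, Cyfip2 and Dnmt1 changed sign in them. The number of members that rose was 5, and 4 with RLE factors, 5 with upper-quartile factors, 4 without the filter, 6 with DESeq2 (Pcdhga4 and Pcdhgb4 added, Pcdhgb5 not called) and 4 with the replicate block, under which Pcdhgb5 (0.997) fell below the fold threshold. Pairing by the block changed no other call of a member and added Pcdh15 among the lists, a gene tested through the Dnmt1Δ/Δep libraries alone and not called without the filter (adjusted p = 0.078). Leaving out 1 library gave between 2 and 3 members (2 without control replicate 1 or Dnmt1Δ/Δep replicate 2), between 2 and 3 gamma genes, 0 beta genes in each case, and 0 members that fell. Over all genes, 1014 rose in the reported fit, 1396 with DESeq2, 1173 with the block, and between 559 (without control replicate 2) and 1183 (without control replicate 1) with 1 library left out. For Pcdhb2 these fits hold fewer libraries at very low counts. Genes called over the 4 lists on protocadherins, their regulators, partners and neighbours numbered 5, between 2 and 7 with 1 library left out (2 without control replicate 2 or Dnmt1Δ/Δep replicate 1), and 9 by the adjusted p alone. The beta and gamma sums kept their direction in every setting, and the alpha sum turned to a log2 ratio of −0.20 (from 0.18) without Dnmt1Δ/Δep replicate 3. Depth limits the alpha cluster and Pcdhb1, Pcdhb6 and Pcdhb10. Reads in constant exons are lost to every alpha and gamma gene.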
